A study of Homo sapiens with 9 samples.

Results

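The 40 genes described here are MYC and 39 genes whose products make ribosomes. They were listed by name and looked up among the 19257 genes of the count table, where all 40 were found, and all 40 passed the low-count filter that kept 12574 genes for testing. By role they fell into 8 genes of RNA polymerase I and its initiation factors, 8 genes of small nucleolar ribonucleoproteins (snoRNPs), 9 genes of the small subunit processome and 40S maturation, 9 genes of 60S maturation, 5 nucleolar genes with several roles, and MYC itself. The libraries were made from total RNA of cells labelled A549, a human lung adenocarcinoma line, in 3 groups of 3. NC cells have the genotype label WT and received the Lenti-CRISPR-V2 plasmid with no guide insert named. OGT_KO cells have the label OGT knockout and received a plasmid of the same backbone against OGT, which encodes O-GlcNAc transferase, a sugar-adding enzyme of the nucleus and cytosol. TR11B_KO cells have the label TR11B knockout and received a plasmid of that backbone against TR11B, the protein database name of osteoprotegerin (gene TNFRSF11B), a secreted decoy receptor. All 3 groups thus carried the backbone, and no drug or time course was named. Neither guide sequences nor the choice of clone or pool for each knockout is given in the sources used here, so a guide or clone effect cannot be told apart from the knockout. Replicates are called biological in the labels, but nothing says that they were separate cultures, and the p-values therefore reflect how these samples varied, which may be technical variation.

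MYC is a basic helix-loop-helix transcription factor that binds E-box sequences together with MAX, and many genes of growth and ribosome production are among its known targets. Ribosome production starts in the nucleolus, where RNA polymerase I transcribes the precursor of the ribosomal RNAs. SnoRNPs then guide chemical modification of the precursor, with box C/D particles directing methylation and box H/ACA particles directing pseudouridylation. The small subunit processome folds and cleaves the part that becomes the 40S subunit, and a separate set of factors matures the 60S subunit.

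Library totals ranged over 38721903-42245970 counts for NC, 38327508-41307039 for OGT_KO and 39556504-41920820 for TR11B_KO. The labels were checked on the targeted genes. OGT itself was at 27.1 CPM (counts per 1e6 counts of the TMM-scaled library total) in NC, 24.1 in OGT_KO and 13.6 in TR11B_KO, so the OGT_KO value against NC was -0.17 ± 0.21 (log2, SE, adjusted p = 0.607, edgeR), while TR11B_KO was lower, with -0.99 ± 0.21 (adjusted p = 0.00393, edgeR). The gene's count thus did not separate OGT_KO from NC, and a small edit would not show in it; the group names are used here as the labels give them. TNFRSF11B was at 0.247 CPM in NC, 0.00758 in OGT_KO and 0.0345 in TR11B_KO and did not pass the low-count filter. TR11B_KO replicate 2 stood apart, with a TMM factor of 0.784 against 0.951 to 1.16 in the other 8 libraries and 14128 genes with a count against 14581 to 14954. Of 9 epithelial and A549 markers, KRT8 (220804 to 475297 counts), KRT18 and NQO1 (3976 to 13586 counts) were abundant in every library. KRT19 had 0 to 17 counts, EPCAM at most 2 and CDH1 0, and AKR1B10, AKR1C1 and ALDH1A1, which are known to be abundant in A549, had at most 4, 6 and 7 counts. Markers of alveolar type 2, fibroblast and endothelial cells that could be read were at or near 0. Of the leukocyte markers that could be read, CD68 had 112 to 269 counts in every library and LYZ at most 2.

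The promoters shown here are those of the 5 members that combined the canonical E-box CACGTG with the smallest adjusted p in OGT_KO against NC. Sequences are from RefSeq on GRCh38.p14, 250 bases before to 50 after 1 annotated start of each gene, 5′ to 3′ on the strand of the gene, with the E-box in capitals. POLR1G lies at chr19:45406394-45406693 on the plus strand, PWP2 at chr21:44107149-44107448 on the plus strand, NOP2 at chr12:6568242-6568541 on the minus strand, FBL at chr19:39846330-39846629 on the minus strand, and BYSL at chr6:41921249-41921548 on the plus strand. BYSL's start in that table is not the start of its RefSeq gene span, which begins upstream at base 41908759.
POLR1G: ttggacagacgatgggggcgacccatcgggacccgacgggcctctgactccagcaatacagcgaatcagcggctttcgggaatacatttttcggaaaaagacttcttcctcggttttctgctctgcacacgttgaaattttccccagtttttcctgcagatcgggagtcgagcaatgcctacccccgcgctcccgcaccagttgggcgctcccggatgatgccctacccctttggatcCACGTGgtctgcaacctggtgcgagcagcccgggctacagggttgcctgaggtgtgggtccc
PWP2: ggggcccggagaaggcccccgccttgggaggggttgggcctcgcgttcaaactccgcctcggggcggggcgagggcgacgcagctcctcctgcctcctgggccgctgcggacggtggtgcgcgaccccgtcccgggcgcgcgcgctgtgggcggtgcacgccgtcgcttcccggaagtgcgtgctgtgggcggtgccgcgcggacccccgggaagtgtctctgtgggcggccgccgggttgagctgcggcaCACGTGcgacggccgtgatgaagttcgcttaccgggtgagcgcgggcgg
NOP2: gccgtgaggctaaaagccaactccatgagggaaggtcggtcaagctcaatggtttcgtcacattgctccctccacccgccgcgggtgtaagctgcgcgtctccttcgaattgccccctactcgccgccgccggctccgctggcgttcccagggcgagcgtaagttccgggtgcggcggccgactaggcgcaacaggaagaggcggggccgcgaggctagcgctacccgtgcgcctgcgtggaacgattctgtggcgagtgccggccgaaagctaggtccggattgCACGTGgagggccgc
FBL: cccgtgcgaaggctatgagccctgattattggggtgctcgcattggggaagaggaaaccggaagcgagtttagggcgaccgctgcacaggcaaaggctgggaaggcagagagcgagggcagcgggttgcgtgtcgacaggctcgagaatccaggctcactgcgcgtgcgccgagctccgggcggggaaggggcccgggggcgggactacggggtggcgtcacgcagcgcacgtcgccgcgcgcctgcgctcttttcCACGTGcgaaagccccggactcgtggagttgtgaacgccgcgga
BYSL: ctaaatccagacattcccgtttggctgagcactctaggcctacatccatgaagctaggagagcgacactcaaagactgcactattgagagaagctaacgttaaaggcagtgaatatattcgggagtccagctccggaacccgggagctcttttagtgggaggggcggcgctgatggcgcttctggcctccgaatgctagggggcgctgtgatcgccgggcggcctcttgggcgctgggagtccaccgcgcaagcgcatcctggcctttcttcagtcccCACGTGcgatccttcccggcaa
CACGTG reads the same on both strands, so each match was counted once. Counting the start base as 1, with no 0, the E-box began at -12 in POLR1G, 2 in PWP2, 36 in NOP2, 7 in FBL and 29 in BYSL. A promoter was matched for 33 of the 40 members; BOP1, MYC, NOLC1, NOP58, POLR1E, RRP12 and RRS1 had no entry. The E-box was present in 14 of the 33 (42.4%), against 7.43% of 27305 RefSeq promoters of the same length and 9.44% of the 14396 promoters of genes in the count table. In all 14 members an E-box began within 50 bases of the start used in that table. All 8 matched members of the small subunit group held one, against 1 of 7 RNA polymerase I members, 2 of 6 snoRNP members, 2 of 7 members of the 60S group and 1 of 5 nucleolar members. These matches describe letters in a window and do not show binding.

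In OGT_KO, 15 of the 40 genes fell against NC and 0 rose. Over all 12574 tested genes, 10.1% fell and 8.26% rose. The member median log2 fold change was -0.47, against 0.03 for all tested genes, and 33 of the 40 values were below 0. For 22 members all 3 OGT_KO libraries lay below all 3 NC libraries, for 2 they lay above, and for 16 the groups overlapped; over all tested genes 25.6% lay fully below and 24.2% fully above. The shift was alike in each library, with a member median of -0.52, -0.53 and -0.48 on the log2 scale relative to the NC mean in replicates 1, 2 and 3. A gene was called when its Benjamini-Hochberg adjusted p from edgeR's quasi-likelihood test, over all tested genes, was under 0.05. A fit of only the NC and OGT_KO libraries called 24 members, 23 lower and 1 higher, and that fit also called more of all tested genes, 22.1% lower and 19.6% higher. In bulk RNA, fewer cells of a kind and less RNA per cell cannot be told apart.

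Against the same NC libraries, 10 members fell and 3 rose in TR11B_KO, where 14.3% of all tested genes fell and 13.2% rose. The member median was -0.15, against -0.01 over all tested genes, and 25 of the 40 values were below 0. Relative to the NC mean the member median was -0.12, -0.41 and -0.28 in replicates 1, 2 and 3. In 13 members the TR11B_KO libraries lay fully below NC and in 5 fully above, with 22 overlapping, against 21.9% fully below and 19% fully above among all tested genes. With library totals alone in place of TMM factors the split was 10 lower and 1 higher, where 16.1% of all tested genes were lower and 9.38% higher. With an offset for gene length it was 12 lower and 0 higher, against 11.9% and 10.2% of all tested genes. The TR11B_KO count was 8, all lower, without NC replicate 1 (all tested genes 7.79% lower, 6.72% higher), without NC replicate 2 (7.45% and 6.66%), or in a fit of only these 2 groups (9.3% and 9.37%). When the knockouts were compared with each other, 11 members were lower in OGT_KO and 5 were higher, where 16.5% of all tested genes were lower and 16.7% higher. With library totals alone the split was 9 lower and 7 higher, against 10.1% and 24.5% of all tested genes. Without OGT_KO replicate 2, 9 members differed in all, and 9.63% of all tested genes were lower and 9.09% higher. The median difference between the knockouts was -0.28, against 0.06 over all tested genes, but it was 0.01 without TR11B_KO replicate 1, -0.06 with library totals alone, -0.08 with the length offset and -0.03 with offsets for GC content and length fitted in each library, an alternative chosen after seeing the data. Library totals alone moved the median of all tested genes to 0.147 in OGT_KO against NC, -0.152 in TR11B_KO against NC and 0.314 between the knockouts, so fold changes are read relative to those medians.

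**Figure D1:**
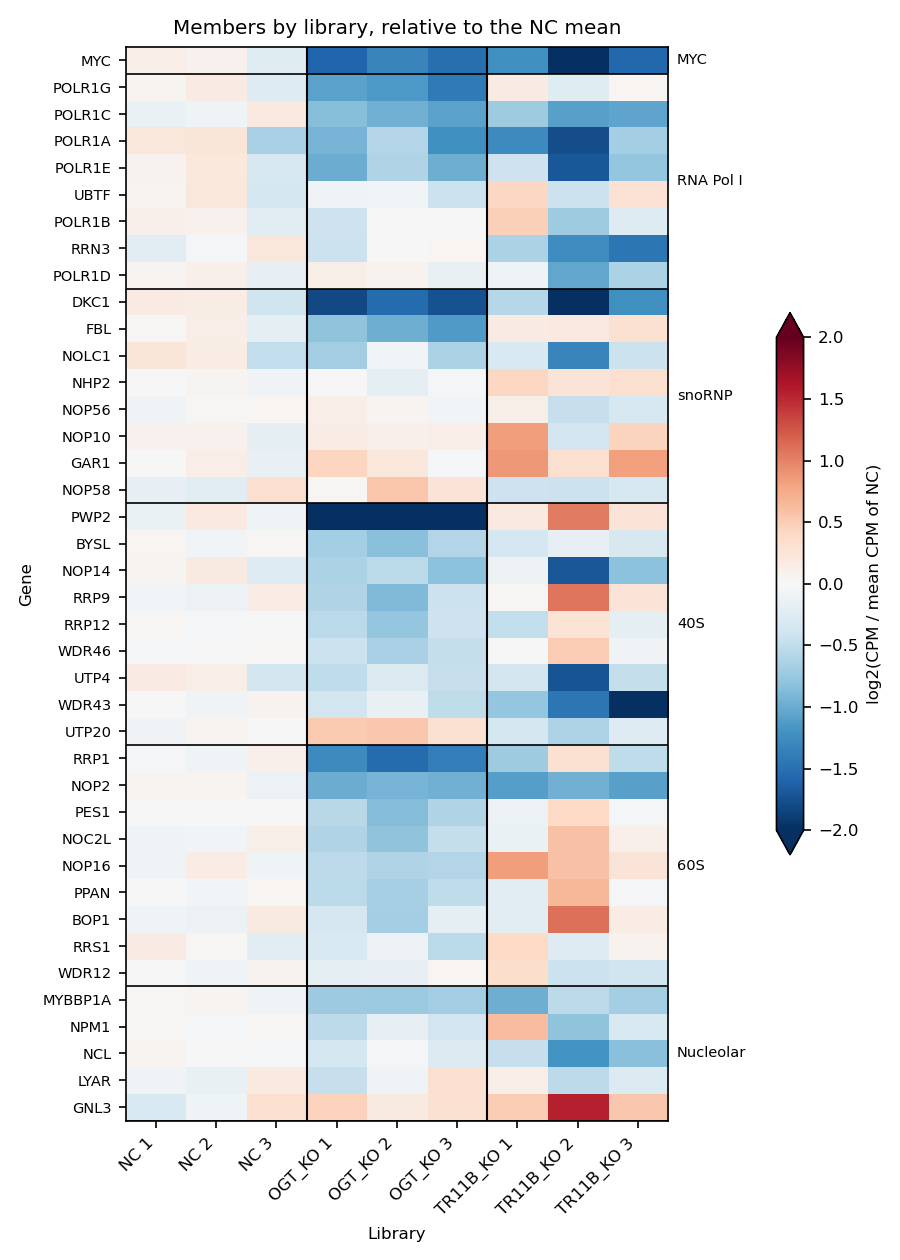
Rows are the 40 genes grouped by role, columns are the 9 libraries, and colour is log2 of CPM over the mean CPM of NC, with values beyond 2 in either direction drawn at the end colours. Both knockouts hold both colours. The OGT_KO columns are mostly blue (33 of 40 fold changes below 0), and the TR11B_KO columns are more mixed (25 of 40 below 0).

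MYC (chr8:127735434-127742951, GRCh38.p14) was at 105.3, 101.4 and 81.06 CPM in NC replicates 1, 2 and 3. OGT_KO had 32.04, 38.4 and 33.85 CPM, and TR11B_KO had 41.17, 12.89 and 32.37 CPM. Every knockout library was below every NC library, and the knockout groups overlapped, with TR11B_KO replicate 2 lowest. MYC fell by 1.46 ± 0.31 (log2, SE) in OGT_KO (adjusted p = 0.00523, edgeR), and by 1.73 ± 0.31 in TR11B_KO (adjusted p = 0.00147, edgeR). Between the knockouts the difference was 0.27 ± 0.30 (adjusted p = 0.528, edgeR). Per gene length, the authors' FPKM for MYC averaged 21.4 in NC, 8.43 in OGT_KO and 6.06 in TR11B_KO. Both falls were called under all 20 alternatives that were run, with adjusted p up to 0.0348 in OGT_KO and 0.0106 in TR11B_KO. PVT1, the long non-coding RNA gene beside MYC, had log2 fold changes of 0.14 ± 0.19 (adjusted p = 0.663, edgeR) in OGT_KO and -0.29 ± 0.19 (adjusted p = 0.291, edgeR) in TR11B_KO.

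**Figure D2:**
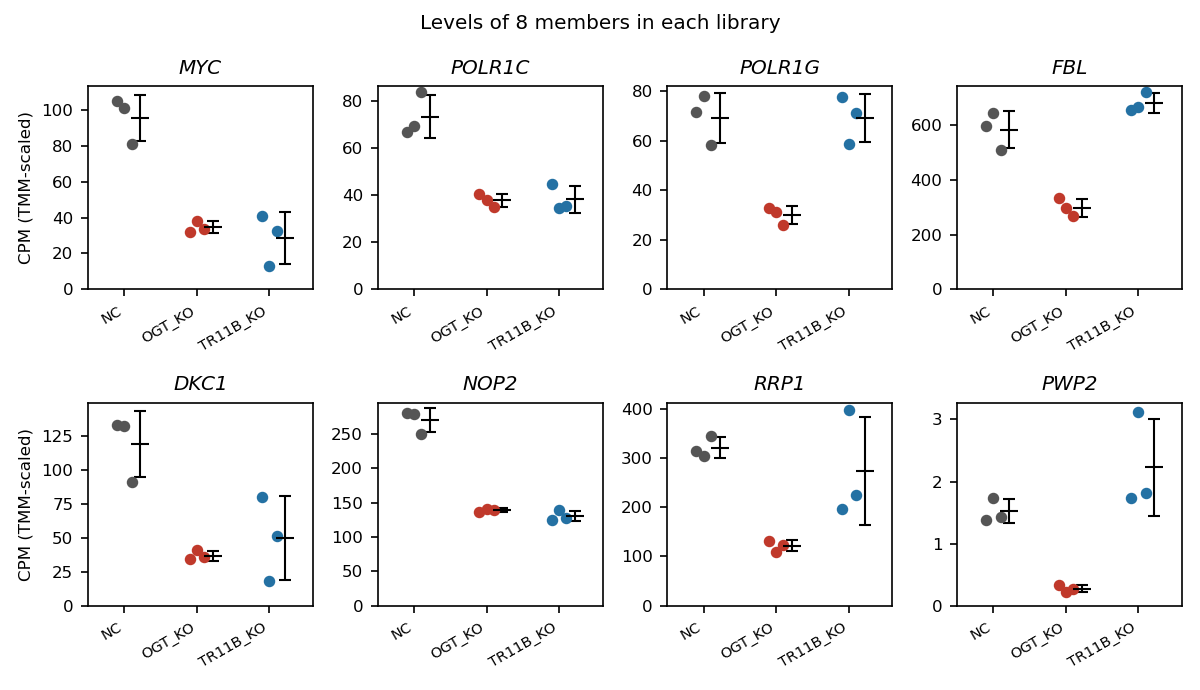
Each panel plots TMM-scaled CPM (axis from 0) of 1 gene; dots are the 3 libraries of a group side by side, and the bar with whiskers is their mean ± SD. MYC, POLR1C and NOP2 are below NC in every library of both knockouts, while POLR1G, FBL and PWP2 are below NC in every OGT_KO library and overlap NC or lie above it in TR11B_KO.

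Of the 8 RNA polymerase I genes, 4 fell in OGT_KO (list median -0.51) and 4 fell in TR11B_KO (list median -0.70, but -0.43 without TR11B_KO replicate 2), and none rose. Among all tested genes 10.1% fell in OGT_KO and 14.3% in TR11B_KO. POLR1C, a subunit shared by RNA polymerases I and III, was at 66.96, 69.34 and 83.92 CPM in NC, 40.73, 37.84 and 34.94 in OGT_KO, while TR11B_KO had 44.72, 34.56 and 35.44. No knockout library reached the lowest NC library, and POLR1C fell by 0.96 ± 0.18 in OGT_KO (adjusted p = 0.00241, edgeR) and by 0.94 ± 0.18 in TR11B_KO (adjusted p = 0.00196, edgeR). POLR1G, a polymerase I subunit of the peripheral subcomplex, was at 71.67, 78 and 58.14 CPM in NC, 32.95, 31.2 and 25.9 in OGT_KO, while TR11B_KO had 77.63, 58.61 and 71.37. OGT_KO lay apart from both other groups: POLR1G fell by 1.21 ± 0.19 against NC (adjusted p = 0.000729, edgeR), and it was lower by the same -1.21 ± 0.19 against TR11B_KO (adjusted p = 0.000326, edgeR). In TR11B_KO its log2 fold change was 0.00 ± 0.18 (adjusted p = 0.997, edgeR). RRN3, the initiation factor that brings the polymerase to its promoter, showed the reverse arrangement, at 4.348, 4.896 and 5.875 CPM in NC, 3.729, 5.065 and 5.165 in OGT_KO, while TR11B_KO had 3.261, 2.128 and 1.844. It fell by 1.06 ± 0.27 in TR11B_KO (adjusted p = 0.0106, edgeR), had a log2 fold change of -0.11 in OGT_KO (adjusted p = 0.802, edgeR), and was 0.94 ± 0.27 higher in OGT_KO than in TR11B_KO (adjusted p = 0.0155, edgeR). That difference for RRN3 was not called without OGT_KO replicate 2 or 3 or TR11B_KO replicate 3 (adjusted p = 0.0576 to 0.0667).

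The largest subunit gene, POLR1A, was at 122.4, 124.5 and 66.75 CPM in NC, 55.08, 69.8 and 44.65 in OGT_KO, while TR11B_KO had 43.24, 30.69 and 65.55. NC replicate 3 was far below the other NC libraries, so that OGT_KO overlapped NC. POLR1A fell by 0.89 ± 0.29 in OGT_KO (adjusted p = 0.0453, edgeR) and by 1.17 ± 0.29 in TR11B_KO (adjusted p = 0.00931, edgeR). POLR1E, the partner of POLR1G in the peripheral subcomplex, was at 46.99, 51.78 and 35.97 CPM in NC, 22.67, 29.58 and 22.75 in OGT_KO, while TR11B_KO had 33.68, 13.83 and 26.22, and it fell by 0.85 ± 0.27 (adjusted p = 0.045, edgeR) and by 0.87 ± 0.27 (adjusted p = 0.0301, edgeR). The OGT_KO calls of POLR1A and POLR1E were the weakest of the polymerase group: without NC replicate 1, NC replicate 2 or any 1 OGT_KO replicate, POLR1A had an adjusted p of 0.0686 to 0.169, and without any 1 NC or OGT_KO replicate or TR11B_KO replicate 3, POLR1E had 0.0562 to 0.159. In TR11B_KO, POLR1E lost its call without NC replicate 1 or 2 or TR11B_KO replicate 3 (adjusted p = 0.0624 to 0.118), and without TR11B_KO replicate 2 its value was -0.55. POLR1B, the second-largest subunit, POLR1D, shared with RNA polymerase III, and UBTF, which binds ribosomal DNA, did not pass the test in any comparison, with log2 fold changes of -0.12, 0.02 and -0.17 in OGT_KO and of -0.08, -0.53 and 0.13 in TR11B_KO.

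The snoRNP group held opposite members, and its median was -0.01 in OGT_KO and 0.01 in TR11B_KO. With library totals alone these became 0.1 and -0.12, where the medians of all tested genes were 0.147 and -0.152. In OGT_KO, 2 of the 8 fell and 0 rose, where 10.1% of all tested genes fell and 8.26% rose. FBL, the methyltransferase of box C/D particles, was at 596.6, 643.5 and 510.4 CPM in NC, 332.6, 295.9 and 266.8 in OGT_KO, while TR11B_KO had 653.6, 668.2 and 720.4. The 3 groups did not overlap, with OGT_KO lowest and TR11B_KO highest. FBL fell by 0.97 ± 0.16 in OGT_KO (adjusted p = 0.00136, edgeR), its value of 0.22 ± 0.16 in TR11B_KO did not pass the test (adjusted p = 0.331, edgeR), and OGT_KO was below TR11B_KO with a difference of -1.19 ± 0.16 (adjusted p = 0.00015, edgeR). DKC1, the pseudouridine synthase of box H/ACA particles and a component of telomerase, was at 133, 131.8 and 90.74 CPM in NC, 34.02, 40.88 and 35.61 in OGT_KO, while TR11B_KO had 79.8, 17.99 and 50.91. It fell by 1.69 ± 0.37 in OGT_KO (adjusted p = 0.00688, edgeR) and by 1.26 ± 0.37 in TR11B_KO (adjusted p = 0.0211, edgeR), where the libraries spread widely and replicate 2 was lowest. Without TR11B_KO replicate 2 the DKC1 value was -0.83 (adjusted p = 0.000352, edgeR), and in TR11B_KO it was no longer called when NC replicate 1, NC replicate 2 or TR11B_KO replicate 3 was left out (adjusted p = 0.0697, 0.0713 and 0.0564).

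No other box H/ACA member was called lower in either knockout. GAR1 was at 9.388, 10.29 and 8.404 CPM in NC and at 16.99, 11.64 and 16.44 in TR11B_KO, where it rose by 0.68 ± 0.22 (adjusted p = 0.0346, edgeR); in OGT_KO it was at 12.67, 11.01 and 9.092, overlapping NC. The rise of GAR1 was not called with an offset for gene length (0.21, adjusted p = 0.526) or without any 1 NC replicate, OGT_KO replicate 1 or 2, or TR11B_KO replicate 3 (adjusted p = 0.0516 to 0.112). NHP2 and NOP10, which complete the core of the particle, had log2 fold changes of -0.07 and 0.13 in OGT_KO and of 0.33 and 0.38 in TR11B_KO, none past the test. NOP56 and NOP58, the paired scaffold proteins of box C/D particles, were not called against NC, at 0.05 and 0.29 in OGT_KO and -0.20 and -0.38 in TR11B_KO. NOP58 was 0.67 ± 0.23 higher in OGT_KO than in TR11B_KO (adjusted p = 0.0375, edgeR), a call lost under 11 of the 20 alternatives, among them the removal of NC replicate 1 or 2, OGT_KO replicate 2 or 3, or TR11B_KO replicate 1 or 3 (adjusted p = 0.0529 to 0.164). NOLC1, the snoRNP chaperone, was at -0.43 in OGT_KO and -0.62 in TR11B_KO, with overlapping groups in both.

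**Figure D3:**
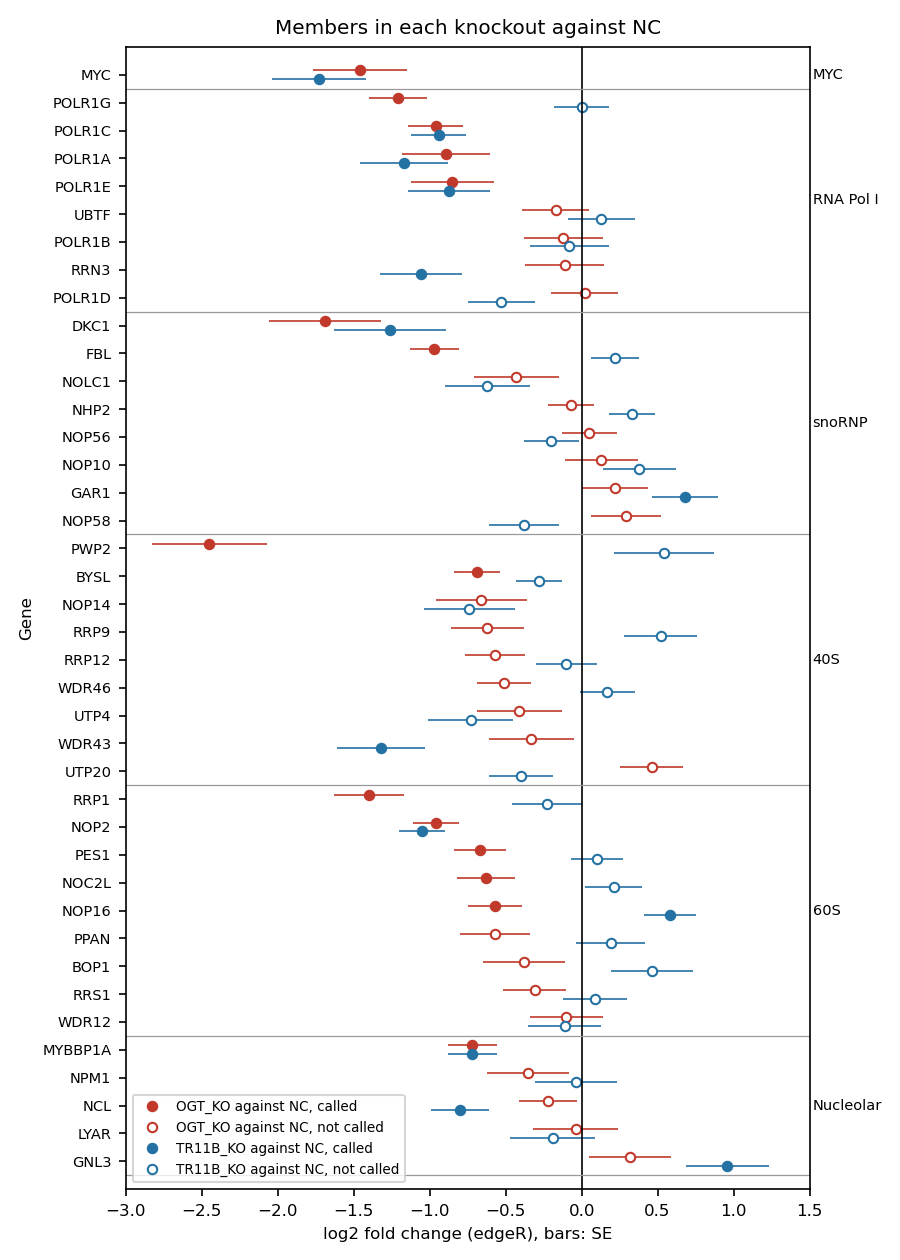
Points are log2 fold changes from edgeR for each of the 40 genes in OGT_KO and TR11B_KO against NC, bars are SE, and filled points passed an adjusted p of 0.05. Filled OGT_KO points lie left of 0 only (15), and filled TR11B_KO points lie on both sides (10 left, 3 right); both sets use the same NC libraries.

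Of the 9 genes for the small subunit processome and 40S maturation, 2 fell in OGT_KO, and the OGT_KO libraries lay fully below NC in 7, with a list median of -0.57. Among all tested genes 10.1% fell in OGT_KO and 25.6% lay fully below NC. PWP2, a component of the UTP-B subcomplex of the processome, was at 1.386, 1.742 and 1.431 CPM in NC, 0.3411, 0.2251 and 0.2618 in OGT_KO, while TR11B_KO had 1.737, 3.127 and 1.818. These levels rest on 56 to 74 counts per NC library and 10 to 15 per OGT_KO library, the lowest of any member. PWP2 fell by 2.45 ± 0.38 in OGT_KO (adjusted p = 0.000729, edgeR), was not called in TR11B_KO (0.54, adjusted p = 0.234, edgeR), and was lower in OGT_KO than in TR11B_KO, with a difference of -2.99 ± 0.38 (adjusted p = 7.21e-05, edgeR). BYSL, an adaptor for late 40S maturation, was at 251.7, 235.8 and 247.8 CPM in NC, 153.7, 137.9 and 164 in OGT_KO, while TR11B_KO had 191.4, 217.7 and 195.9. OGT_KO was lowest in every library and TR11B_KO lay between, and BYSL fell by 0.69 ± 0.15 in OGT_KO (adjusted p = 0.00751, edgeR) with a TR11B_KO value of -0.28 ± 0.15 (adjusted p = 0.188, edgeR).

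A member of the processome with a different arrangement was WDR43, at 6.689, 6.355 and 6.974 CPM in NC, 5.185, 6.01 and 4.689 in OGT_KO, while TR11B_KO had 3.903, 2.45 and 1.639. WDR43 fell by 1.32 ± 0.29 in TR11B_KO (adjusted p = 0.00439, edgeR), had a value of -0.33 in OGT_KO (adjusted p = 0.428, edgeR), and was 0.99 ± 0.28 higher in OGT_KO than in TR11B_KO (adjusted p = 0.0165, edgeR; 0.0731 without OGT_KO replicate 2 and 0.0665 without TR11B_KO replicate 3). UTP20, a large scaffold of the processome, was at 6.474, 7.085 and 6.872 CPM in NC, 9.778, 9.86 and 8.426 in OGT_KO, while TR11B_KO had 5.355, 4.416 and 5.71. The UTP20 groups did not overlap, but neither knockout passed the test against NC (0.46, adjusted p = 0.134; -0.40, adjusted p = 0.168, edgeR), while OGT_KO was 0.86 ± 0.21 above TR11B_KO (adjusted p = 0.00658, edgeR), and with an offset for gene length that value was 0.5 (adjusted p = 0.0745). RRP9, a U3 snoRNP protein, was at 512.4, 493 and 591.9 CPM in NC, 352.4, 288.4 and 396.7 in OGT_KO, while TR11B_KO had 541.9, 1115 and 634.2. RRP9 was lower in OGT_KO than in TR11B_KO by a difference of -1.14 ± 0.24 (adjusted p = 0.00284, edgeR), and its values against NC, -0.62 and 0.52, were not called (adjusted p = 0.0855 and 0.119, edgeR). WDR46, a processome scaffold, was also lower in OGT_KO than in TR11B_KO (-0.68 ± 0.18, adjusted p = 0.01, edgeR); without OGT_KO replicate 2 its adjusted p was 0.0583. NOP14 and UTP4, both of the processome, and RRP12, which acts in 40S export, were not called, with values of -0.66, -0.41 and -0.57 in OGT_KO and of -0.74, -0.73 and -0.10 in TR11B_KO. Under the 20 alternatives, RRP12 was called lower in OGT_KO against NC in 7, RRP9 in 6, WDR46 in 5, NOP14 in 4 and UTP4 in 2. A fit of only NC and OGT_KO called 7 of the 9 group members lower and 1 higher. Over all tested genes that fit called 22.1% lower and 19.6% higher. Without TR11B_KO replicate 2 the group had 7 lower, beside 19.1% of all tested genes.

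The 60S group had 5 members lower and 0 higher of 9 in OGT_KO, with a median of -0.57 and 7 members fully below NC. Without any 1 NC or OGT_KO replicate it had 2 lower, as had the snoRNP and small subunit groups. The share of all tested genes called lower was then 5.05% to 6.76%. In TR11B_KO, 1 fell and 1 rose, with a median of 0.10, against -0.01 over all tested genes. With library totals alone it was -0.03, against -0.152 over all tested genes. Among all tested genes 10.1% fell and 25.6% lay fully below NC in OGT_KO, and 14.3% fell and 13.2% rose in TR11B_KO. NOP2, a methyltransferase of the large ribosomal RNA, was at 280.5, 279.5 and 250 CPM in NC, 136.4, 141.4 and 138.7 in OGT_KO, while TR11B_KO had 125.4, 139 and 126.9. The libraries within each knockout agreed closely, and NOP2 fell by 0.96 ± 0.15 in OGT_KO (adjusted p = 0.000824, edgeR) and by 1.05 ± 0.15 in TR11B_KO (adjusted p = 0.00044, edgeR), with 0.09 ± 0.15 between the knockouts (adjusted p = 0.679, edgeR). RRP1, a nucleolar factor of 60S maturation, was at 314, 303 and 345.3 CPM in NC, 132.3, 110 and 123.3 in OGT_KO, while TR11B_KO had 196.1, 398 and 225.2. RRP1 fell by 1.40 ± 0.23 in OGT_KO (adjusted p = 0.00122, edgeR), while in TR11B_KO, where replicate 2 was above NC and the others below, its value was -0.23 ± 0.23 (adjusted p = 0.479, edgeR). Without that replicate the TR11B_KO value of RRP1 was -0.57 (adjusted p = 0.00207, edgeR), and it was also called with an offset for GC content (-0.53, adjusted p = 0.00463, edgeR). NOP16, a nucleolar protein of pre-60S particles, was at 103.8, 122.4 and 103.8 CPM in NC, 76.23, 72.24 and 73.67 in OGT_KO, while TR11B_KO had 196.6, 164.8 and 131.8. The 3 groups were apart, with a fall by 0.57 ± 0.18 in OGT_KO (adjusted p = 0.0362, edgeR), a rise of 0.58 ± 0.17 in TR11B_KO (adjusted p = 0.0246, edgeR) and a difference of -1.15 ± 0.18 between them (adjusted p = 0.000318, edgeR). The NOP16 rise was 0.1 (adjusted p = 0.725) with an offset for gene length and was not called without any 1 NC replicate (adjusted p = 0.0533 to 0.11), and its OGT_KO call was lost without any 1 NC or OGT_KO replicate (adjusted p = 0.0701 to 0.154).

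PES1 and BOP1 act with WDR12 as the PeBoW complex, and PES1 was at 792.5, 796.3 and 790.9 CPM in NC, 537.5, 436.3 and 522.1 in OGT_KO, while TR11B_KO had 734.6, 1041 and 783.8. PES1 fell by 0.67 ± 0.17 in OGT_KO (adjusted p = 0.0167, edgeR), a call that was lost without any 1 NC or OGT_KO replicate (adjusted p = 0.0502 to 0.0843), and it differed by -0.77 ± 0.17 between the knockouts (adjusted p = 0.0042, edgeR). BOP1 was at 2261, 2199 and 2696 CPM in NC, 1887, 1489 and 2111 in OGT_KO, while TR11B_KO had 2050, 5135 and 2658, with its replicate 2 highest. Neither knockout passed the test for BOP1 against NC (-0.38 and 0.46), and its call between the knockouts (-0.84 ± 0.27, adjusted p = 0.0289, edgeR) became -0.39 without TR11B_KO replicate 2 (adjusted p = 0.0359), and was lost under 9 of the 20 alternatives. Among them, BOP1 was at -0.53 with library totals alone (adjusted p = 0.0705), -0.64 with the length offset (0.0877), -0.78 with the replicate number as a block (0.0612), -0.23 with the GC offset (0.151) and -0.17 with GC and length offsets (0.27), and its adjusted p was 0.0771 and 0.136 without OGT_KO replicate 1 or 2. WDR12, the remaining subunit, had values of -0.10 and -0.11 against NC. NOC2L, a partner of pre-60S particles that also inhibits histone acetyltransferases, was at 1478, 1493 and 1679 CPM in NC, 1016, 886.8 and 1110 in OGT_KO, while TR11B_KO had 1407, 2316 and 1666. NOC2L fell by 0.63 ± 0.19 in OGT_KO (adjusted p = 0.0361, edgeR), but the call was lost under 12 of the 20 alternatives, among them the removal of any 1 NC or OGT_KO replicate or of TR11B_KO replicate 3 (adjusted p = 0.0504 to 0.144). PPAN and RRS1, 2 further pre-60S factors, had values of -0.57 and -0.31 in OGT_KO and of 0.19 and 0.09 in TR11B_KO, none called. Against NC, PPAN was called lower in OGT_KO under 5 of the 20 alternatives. PPAN was lower in OGT_KO than in TR11B_KO (-0.76 ± 0.23, adjusted p = 0.0197, edgeR), a call lost under 8 of the 20 alternatives, among them the removal of any 1 OGT_KO replicate (adjusted p = 0.0541 to 0.0866). The PPAN difference was -0.46 with library totals alone (adjusted p = 0.0878), -0.57 with the length offset (0.0689), -0.25 with the GC offset (0.186) and -0.19 with GC and length offsets (0.3), and it was -0.49 without TR11B_KO replicate 2.

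Among the 5 nucleolar genes, 1 fell in OGT_KO, and 2 fell and 1 rose in TR11B_KO. The shares over all tested genes were 10.1% lower in OGT_KO, and 14.3% lower and 13.2% higher in TR11B_KO. MYBBP1A, a MYB-binding nucleolar protein, was at 519, 530.6 and 485 CPM in NC, 310.4, 304.6 and 314.9 in OGT_KO, while TR11B_KO had 259.5, 355.2 and 318.3. It was below NC in all 6 knockout libraries and fell by 0.72 ± 0.16 in OGT_KO (adjusted p = 0.00792, edgeR) and by 0.72 ± 0.16 in TR11B_KO (adjusted p = 0.00575, edgeR). NCL (nucleolin), an abundant RNA-binding protein of the nucleolus, was at 165, 158.7 and 154.4 CPM in NC, 124.2, 155.9 and 131.1 in OGT_KO, while TR11B_KO had 115, 69.18 and 89.4. NCL fell by 0.80 ± 0.19 in TR11B_KO (adjusted p = 0.00748, edgeR), and its OGT_KO value of -0.22 was not called (adjusted p = 0.457, edgeR). OGT_KO was 0.59 ± 0.19 above TR11B_KO for NCL (adjusted p = 0.0292, edgeR), a call lost without any 1 OGT_KO replicate or TR11B_KO replicate 3 (adjusted p = 0.0503 to 0.132). GNL3 (nucleostemin), a GTP-binding nucleolar protein, was at 16.72, 19.35 and 25.62 CPM in NC, 28.24, 23.41 and 25.47 in OGT_KO, while TR11B_KO had 29.23, 60.73 and 29.83. GNL3 rose by 0.96 ± 0.27 in TR11B_KO (adjusted p = 0.0189, edgeR); without TR11B_KO replicate 2 its value was 0.55 (adjusted p = 0.0145), and without NC replicate 1 or 2 it was not called (adjusted p = 0.0909 and 0.0767). NPM1 (nucleophosmin), a histone and ribosome chaperone, and LYAR, a nucleolar zinc finger protein, passed no test, with values of -0.35 and -0.04 in OGT_KO and of -0.04 and -0.19 in TR11B_KO.

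Levels per gene length differed widely among the members. By the authors' FPKM in NC, BOP1 was highest at a mean of 992, followed by NOC2L at 567, FBL at 516 and RRP9 at 349, and PWP2 was lowest at 0.481, after UTP20 at 0.761 and WDR12 at 1.18. NPM1 was at 80.2 and NCL at 41.0 on the same scale. Together the 40 genes took 0.992%, 0.990% and 1.03% of all counts in NC, 0.742%, 0.720% and 0.757% in OGT_KO, while TR11B_KO had 0.897%, 1.07% and 0.921%. All OGT_KO libraries were below all NC libraries in this share, while TR11B_KO overlapped NC, with its replicate 2 highest of the 9. This share weighs the most abundant genes most. In TR11B_KO replicate 2, BOP1 alone was at 5135 of the 13660 CPM of all members. The member median in that library was -0.41 on the log2 scale relative to the NC mean, with 26 members below it and 14 above. The messages of cytosolic ribosomal proteins, the products that these factors assemble, took 10.1% to 10.9% of counts in NC, 11.2% to 11.8% in OGT_KO and 13.5% to 16.4% in TR11B_KO. After TMM scaling their summed CPM was 100100 to 108100 in NC, 96400 to 111500 in OGT_KO and 157400 to 172500 in TR11B_KO. On that scale OGT_KO overlapped NC, and TR11B_KO lay above it. No length offset was applied to these sums. Over all tested genes, Spearman's rho between length and a library's deviation from the mean of all libraries was -0.28, -0.22 and -0.28 in TR11B_KO. It was 0.06 to 0.31 in the NC and OGT_KO libraries. The part of length in the TR11B_KO sums was not tested.

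Members with and without the E-box were described side by side. In OGT_KO, 7 of the 14 members with an E-box fell (median -0.67) and 6 of the 19 without one fell (median -0.17). In TR11B_KO the counts were 3 of 14 (median -0.14) and 5 of 19 (median -0.11), and the 3 members that rose there, GAR1, NOP16 and GNL3, all lacked the E-box. Among other tested genes, 10.4% of 1019 with an E-box and 9.94% of 9050 without one fell in OGT_KO, and 16.3% and 14.2% fell in TR11B_KO. The members with and without an E-box were not matched for role, position or GC content. Of the 14 with one, 8 were small subunit genes, and PWP2 lies on chromosome 21, where 30.1% of tested genes fell in OGT_KO. Member fold changes in OGT_KO also followed GC content (Spearman's rho -0.54). The part of the E-box in the member values was not tested.

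Genes of the same pathways outside the member list were counted from 4 further lists of 115 tested genes. In OGT_KO, 21 of the 115 fell and 1 rose (median -0.22), and in TR11B_KO 25 fell and 14 rose (median -0.13). The counts of these lists stand beside 10.1% of all tested genes lower and 8.26% higher in OGT_KO, and 14.3% and 13.2% in TR11B_KO. Of 44 other 60S factors, 12 fell in OGT_KO, among them URB1 (-1.26 ± 0.23, adjusted p = 0.00261, edgeR) and URB2 (-1.09 ± 0.23, adjusted p = 0.00566, edgeR), both of early pre-60S particles, and in TR11B_KO 11 fell and 5 rose. Of 45 other small subunit factors, 7 fell in OGT_KO, led by the helicase DHX37 (-1.40 ± 0.22, adjusted p = 0.000798, edgeR), and in TR11B_KO 11 fell, with UTP14A at -1.33 ± 0.28 (adjusted p = 0.00357, edgeR), and 4 rose, with UTP18 at 1.56 ± 0.34 (adjusted p = 0.00476, edgeR). TCOF1 (treacle), an activator of ribosomal DNA transcription, was the only one of 14 other RNA polymerase I factors to fall, by 0.74 ± 0.19 in OGT_KO (adjusted p = 0.0136, edgeR) and by 0.81 ± 0.19 in TR11B_KO (adjusted p = 0.00607, edgeR), and 4 of the 14 rose in TR11B_KO. Among 12 other snoRNP assembly factors, 1 fell and 1 rose in OGT_KO, and 2 fell and 1 rose in TR11B_KO. RNA polymerase III, which makes 5S ribosomal RNA and transfer RNA, had 2 of 19 genes lower in OGT_KO and 6 lower and 1 higher in TR11B_KO, with POLR3A, its largest subunit, falling by 0.94 ± 0.21 (adjusted p = 0.0079, edgeR) and by 1.55 ± 0.22 (adjusted p = 0.00034, edgeR).

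Of 17 tested partners and regulators of MYC, 1 fell in OGT_KO (ZBTB17, a zinc finger factor that binds MYC, by 0.64) and 0 rose; in TR11B_KO 4 fell, among them MGA (by 0.98), and 2 rose, MXD4 (0.91) and MXD3 (0.76), which compete with MYC for MAX. MAX itself was at -0.49 ± 0.26 in OGT_KO (adjusted p = 0.2, edgeR) and fell by 0.81 ± 0.26 in TR11B_KO (adjusted p = 0.0325, edgeR). Of 24 tested targets outside ribosome production, 2 fell and 1 rose in OGT_KO, and 5 fell and 3 rose in TR11B_KO. Over all tested genes, 10.1% fell and 8.26% rose in OGT_KO, and 14.3% fell and 13.2% rose in TR11B_KO. TERT, the catalytic subunit of telomerase, fell by 1.38 ± 0.21 in OGT_KO (adjusted p = 0.000723, edgeR), and ODC1, the first enzyme of polyamine synthesis, fell by 1.46 ± 0.20 in TR11B_KO (adjusted p = 0.000313, edgeR). HSPE1, a mitochondrial co-chaperonin, rose by 1.30 ± 0.26 in OGT_KO (adjusted p = 0.00432, edgeR) and by 1.94 ± 0.27 in TR11B_KO (adjusted p = 0.000335, edgeR). Mitosis and growth markers, which follow the share of dividing cells, took 0.257% to 0.272% of counts in NC, 0.207% to 0.229% in OGT_KO and 0.138% to 0.149% in TR11B_KO. Of 17 such genes, 3 fell and 3 rose in OGT_KO, with CCNB1 falling by 1.05 and MKI67 rising by 0.97, and 10 fell and 0 rose in TR11B_KO, with BUB1 falling by 1.83. The part of cell division in the member values was not tested.

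**Figure D4:**
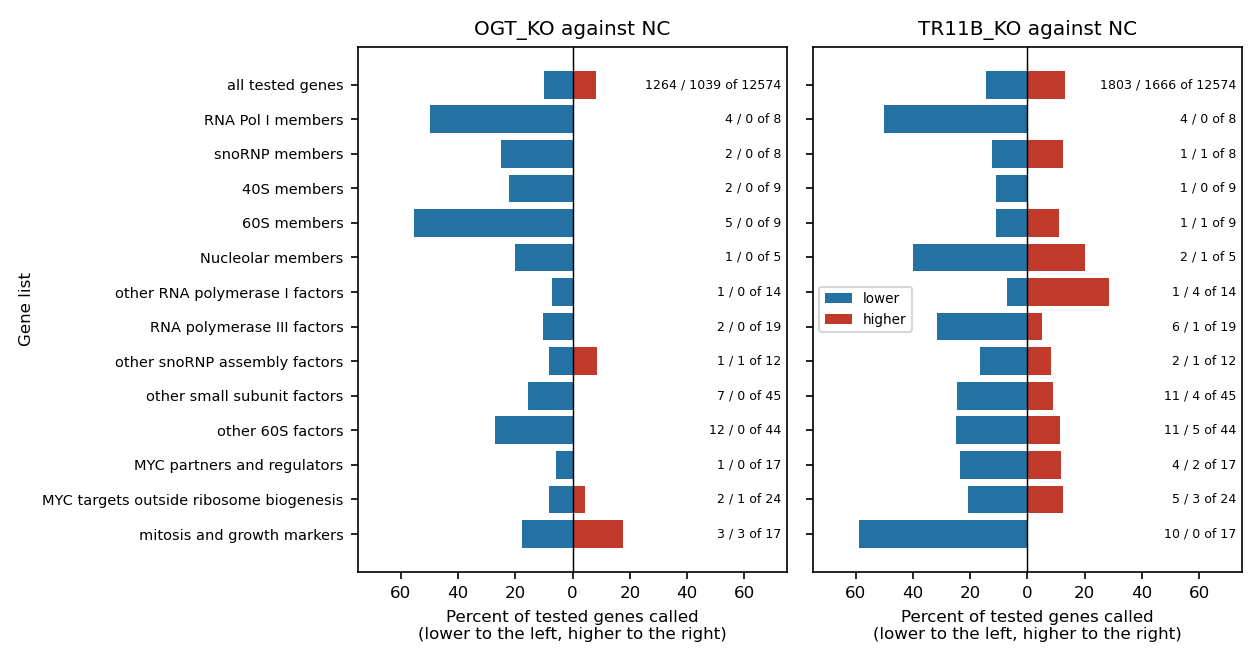
Bars are the percent of tested genes in each list that were called lower (left) or higher (right) in a knockout against NC, with the counts lower / higher of tested printed at the right. In OGT_KO the RNA polymerase I members (4 of 8) and the 60S members (5 of 9) have the longest bars to the left, and in TR11B_KO the mitosis and growth markers (10 of 17) do. The order of the member groups in OGT_KO changed when a single NC or OGT_KO library was left out.

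RRP1 and PWP2, 2 of the members with the largest falls in OGT_KO, lie near each other on chromosome 21, at chr21:43789577-43805293 and chr21:44107399-44131181. Of 123 tested genes on chromosome 21, 37 fell and 2 rose in OGT_KO (30.1% lower, median -0.54), and the next highest share was 14.8%, on chromosome 22. Within 1 Mb of RRP1 or PWP2, 12 of 27 tested genes that are no members fell and 0 rose (median -0.83), whereas in TR11B_KO 1 fell and 6 rose. Without RRP1 and PWP2, 13 of 38 members fell in OGT_KO and 0 rose, with a median of -0.42. URB1, among the other 60S factors, lies on chromosome 21 too. The part of chromosome 21 in the falls of RRP1 and PWP2 was not tested.

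Fold changes of the members also followed base composition. Across the 40 genes, Spearman's rho between transcript GC content and log2 fold change was -0.54 in OGT_KO against NC, 0.34 in TR11B_KO against NC and -0.65 between the knockouts, where over 12164 tested genes it was -0.23, 0.15 and -0.31. With transcript length the member values were -0.12, -0.5 and 0.37, and those of all genes 0.07, -0.31 and 0.33. These are descriptions across genes of the same libraries, which are not independent. Members had a median GC content of 51.5% and length of 2834 bases, against 49.2% and 3965 over all tested genes, and a median NC level of 100 CPM against 5.6. Library by library, rho between GC content and the deviation of the members was 0.08 to 0.11 in NC, -0.58, -0.74 and -0.59 in OGT_KO, while TR11B_KO had -0.11, 0.59 and 0.52. With an offset for GC content fitted in each library, an alternative chosen after seeing the data, 17 members fell and 0 rose in OGT_KO, where 13% of all tested genes fell and 12.6% rose. Of the 15 members called without the offset, 13 were among these 17, and POLR1A and NOP16 were not. In TR11B_KO 13 fell and 5 rose (all tested genes 18.9% and 15.3%), and between the knockouts 12 were lower and 7 higher in OGT_KO (17.2% and 21.7%). In the fit with the GC offset the OGT_KO falls were 3 of the RNA polymerase I genes, 2 of the snoRNP genes, 4 of the small subunit genes, 6 of the 60S genes, 1 nucleolar gene and MYC.

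**Figure D5:**
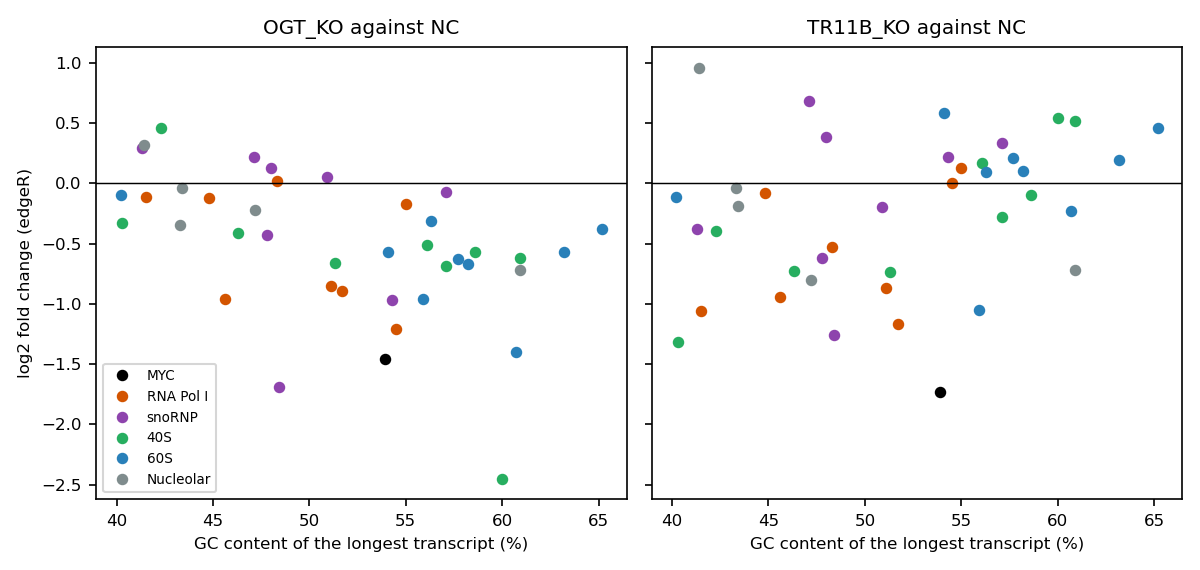
Each point is 1 of the 40 genes, with the GC content of its longest transcript in percent on the x axis and its log2 fold change from edgeR on the y axis, coloured by role. Values go down with GC content in OGT_KO (rho -0.54) and up in TR11B_KO (rho 0.34).

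Some members share exon sequence with another gene, and the sources used here do not say whether counting used strand. By GENCODE exons, 48.4% of POLR1G's exon bases overlap ERCC1 on the opposite strand, and ERCC1 had log2 fold changes of -0.46 in OGT_KO (adjusted p = 0.13, edgeR) and 0.63 in TR11B_KO (adjusted p = 0.0329, edgeR). Between the knockouts ERCC1 was at -1.08 (adjusted p = 0.00136, edgeR), beside -1.21 for POLR1G. NHP2 overlaps RMND5B on the opposite strand over 43.8% of its exon bases, NOC2L overlaps SAMD11 over 13.5%, NOP16 overlaps HIGD2A over 12.3% and PES1 overlaps TCN2 over 8.36%. HIGD2A had values of 0.00 in OGT_KO and -0.01 in TR11B_KO. Between the knockouts SAMD11 was at -1.05 (adjusted p = 0.0122, edgeR), while RMND5B (-0.23), HIGD2A (0.01) and TCN2 (-0.4) were not called. PPAN shares 83.2% of its exon bases with the read-through gene PPAN-P2RY11 on the same strand, and NOP2 shares 70.9% with an unnamed gene model. The values of these members are uncertain to that extent.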

How the data were processed

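Total RNA from 9 cell samples was sequenced, 3 each of NC, OGT_KO and TR11B_KO, with groups and replicate numbers taken from the sample titles. The authors deposited raw counts per gene, whole numbers with no normalization, and a table of FPKM values scaled by gene length and library total. The submitters' processing notes name DESeq2, fastp, R 3.2.0, HTSeq and HISAT and the build GRCh38; roles and settings are not given in the sources used here. Counts were analysed in R 4.3.3 with edgeR 4.0.16: 12574 genes passed filterByExpr, libraries were scaled by TMM, and a quasi-likelihood fit (robust) with a mean for each group took in all 9 libraries. P-values were Benjamini-Hochberg adjusted over all tested genes and called under 0.05; SE was derived from the F statistic and the size of the fold change. The steps were tested on simulated data. FPKM, as deposited, was used for levels between genes, and its ratio to the count gave gene length. GC content came from the longest GENCODE transcript, and positions and promoters from RefSeq (GRCh38.p14).

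The members and lists were chosen with earlier results of these data known. Text naming followed a rule: all 40 members, up to 4 called genes of each further list by smallest adjusted p, and up to 5 promoters with an E-box; not all of the further genes are named. MAX, the neighbouring or overlapping genes and the targeted genes were named outside this rule. Members had 10 to 159288 counts per library, and 36 of 40 had at least 100 in each; replicate libraries differed by more than sampling noise (chi-square per degree of freedom 9.54 to 310), so none was counted as a copy. Alternatives were DESeq2 1.42.0, RLE factors or library totals alone, 2 other low-count filters, fits of the 2 groups compared, a replicate block, a length offset alone and with the block, each replicate left out, and, added after seeing the data, offsets for GC content alone and with length.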

Additional observations from a re-analysis of the deposited data

How the results depend on the processing

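Members called were 15 in OGT_KO against NC, 13 in TR11B_KO against NC and 16 between the knockouts. A fit of only the 2 groups compared gave 24 (23 lower, 1 higher) for OGT_KO against NC and 8 for TR11B_KO against NC. The spread was then estimated from those 2 groups alone. Over all tested genes, 22.1% were lower and 19.6% higher in OGT_KO, and 9.3% and 9.37% in TR11B_KO. Leaving out each of the 9 libraries in turn gave 10 to 22, 8 to 18 and 9 to 24 member calls. Calls over all tested genes then ranged over 1072 to 4536, 1813 to 4463 and 2401 to 5308, from 2303, 3469 and 4174 with all 9 libraries. Without NC replicate 1 or without NC replicate 2, TR11B_KO against NC had 8; without OGT_KO replicate 2 the knockouts differed in 9; without TR11B_KO replicate 2 the counts were 22, 16 and 24, and calls over all tested genes rose too (19.1% lower and 16.3% higher in OGT_KO against NC, from 10.1% and 8.26%). Between replicate libraries, chi-square per degree of freedom was 9.54 to 37.7 in NC, 15.7 to 39.3 in OGT_KO and 62.9 to 310 in TR11B_KO. The cause of the changes in call counts was not tested. Of the called members, 10, 7 and 8 were called under all 20 alternatives; in OGT_KO these were MYC, POLR1C, POLR1G, FBL, DKC1, PWP2, BYSL, NOP2, RRP1 and MYBBP1A, and in TR11B_KO MYC, POLR1C, RRN3, WDR43, NOP2, NCL and MYBBP1A. DESeq2 called 16, 14 and 20 members, where it called 2742 of 14112, 3889 of 14112 and 4581 of 14805 tested genes. The GC offset called 17, 18 and 19 members, and 3220, 4307 and 4888 of 12574 tested genes. The single reversal was MYBBP1A between the knockouts, 0.00 (not called) against 0.39 with the GC offset (adjusted p = 0.0123, edgeR); the cause was not tested. With the replicate number as a replicate block, 11, 10 and 13 members were called, and 1609, 2612 and 3403 of all tested genes. With block and length offset these were 12, 10 and 11 members, and 1555, 1978 and 2775 of all tested genes. Correlations of the deviations from the group means were -0.2 to 0.07 for same-numbered samples and -0.1 to 0.22 for other-numbered ones. These values gave no sign of pairing by number, but so few samples per group cannot exclude it. PWP2, with 10 to 15 counts per OGT_KO library, is the member most limited by depth.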
